A study of Mus musculus with 3 samples.

Results

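The genes described here encode 39 enzymes that build, sulfate and trim heparan sulfate and chondroitin sulfate chains. They were taken by gene symbol from a count table of 34591 symbols, and each of the 39 symbols was present. The table covers 3 RNA sequencing libraries of 4T1, a mouse mammary carcinoma line, in which WISP2, a secreted matricellular protein, was over-expressed. The labels give this genotype to all 3 samples, which form 1 group. The labelled protocol describes viral transduction of tumour cells and selection with puromycin. Its text concerns Wisp1 constructs, and it does not say whether a clone was picked. Empty-vector control cells, which the series' design text names, were not analysed here. The values below therefore describe the over-expressing cells and give no effect of WISP2.

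Heparan sulfate and chondroitin sulfate are long sugar chains attached to core proteins of the cell surface and the matrix. Both chains start from the same short linker on a serine of the core protein. Heparan sulfate is then extended by exostosins and chondroitin sulfate by chondroitin synthases, and sulfotransferases decorate either chain in the Golgi with sulfate from the donor PAPS. The pattern of sulfate groups sets which growth factors, chemokines and matrix proteins a chain binds, and in mammary tumours the chains are known as coreceptors for such ligands.

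The libraries, called C1, C2 and C3 after the table's column names, held 17630755, 67028365 and 47577315 counts. Levels are given as CPM, the count divided by the library's total and scaled up, and 1 count was worth 0.0567, 0.0149 and 0.0210 CPM in these libraries. Whether separate cultures were used is not stated, so the spread between libraries, and the p-values that measure it, may be technical. The labelled cell type was checked against its markers: Krt8, Krt18, Krt7, Cdh1 and Epcam of carcinoma epithelium lay between 90.9 and 1077 CPM on average. Of the leukocyte markers 2 of 8 reached 1 CPM in every library (Lyz2 and Cd68), of the fibroblast markers 0 of 6 and of the endothelial markers 0 of 4. In C1 alone Csf1r (1.42 CPM) and Emr1 (1.76 CPM) also exceeded 1 CPM. The summed leukocyte markers stood at 18.8, 9.52 and 9.79 CPM in C1, C2 and C3, with Cd3e at 0 counts. Lyz2 had 9.42, 3.12 and 3.78 CPM in C1, C2 and C3, whereas Ptprc was highest in C3 (0.0567, 0.119 and 0.273 CPM). The summed fibroblast markers lay between 0.510 and 0.967 CPM, with Lum and Thy1 at 0 counts. The summed endothelial markers lay between 0.0746 and 0.284 CPM. In such bulk samples fewer cells of a type and less RNA per cell cannot be told apart.

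Of the 39 enzymes 24 (61.5%) reached 1 CPM in every library, where 33.8% of all symbols of the table did. Another 6 had counts but fell below 1 CPM in at least 1 library, and 9 (a share of 23.1%) had no count, where 45.7% of all symbols had none. Both chains had a detected gene for every step covered by the list, except the 6-O-sulfation of chondroitin and the second sulfation by Chst15. Near the threshold lay the calls for 3-O-sulfation of heparan sulfate (Hs3st1, 1.32 CPM on average) and 6-O-sulfation of chondroitin (Chst3, 0.681 CPM). Where a step has several paralogs, some were silent in most cases. On average 3 of the enzymes exceeded 100 CPM, 17 lay between 10 and 100 CPM and 4 between 1 and 10 CPM. The median of the 24 detected enzymes was 32.2 CPM, and that of all 11700 detected genes was 35.9 CPM. No older symbol of a silent enzyme was found elsewhere in the table.

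**Figure D1:**
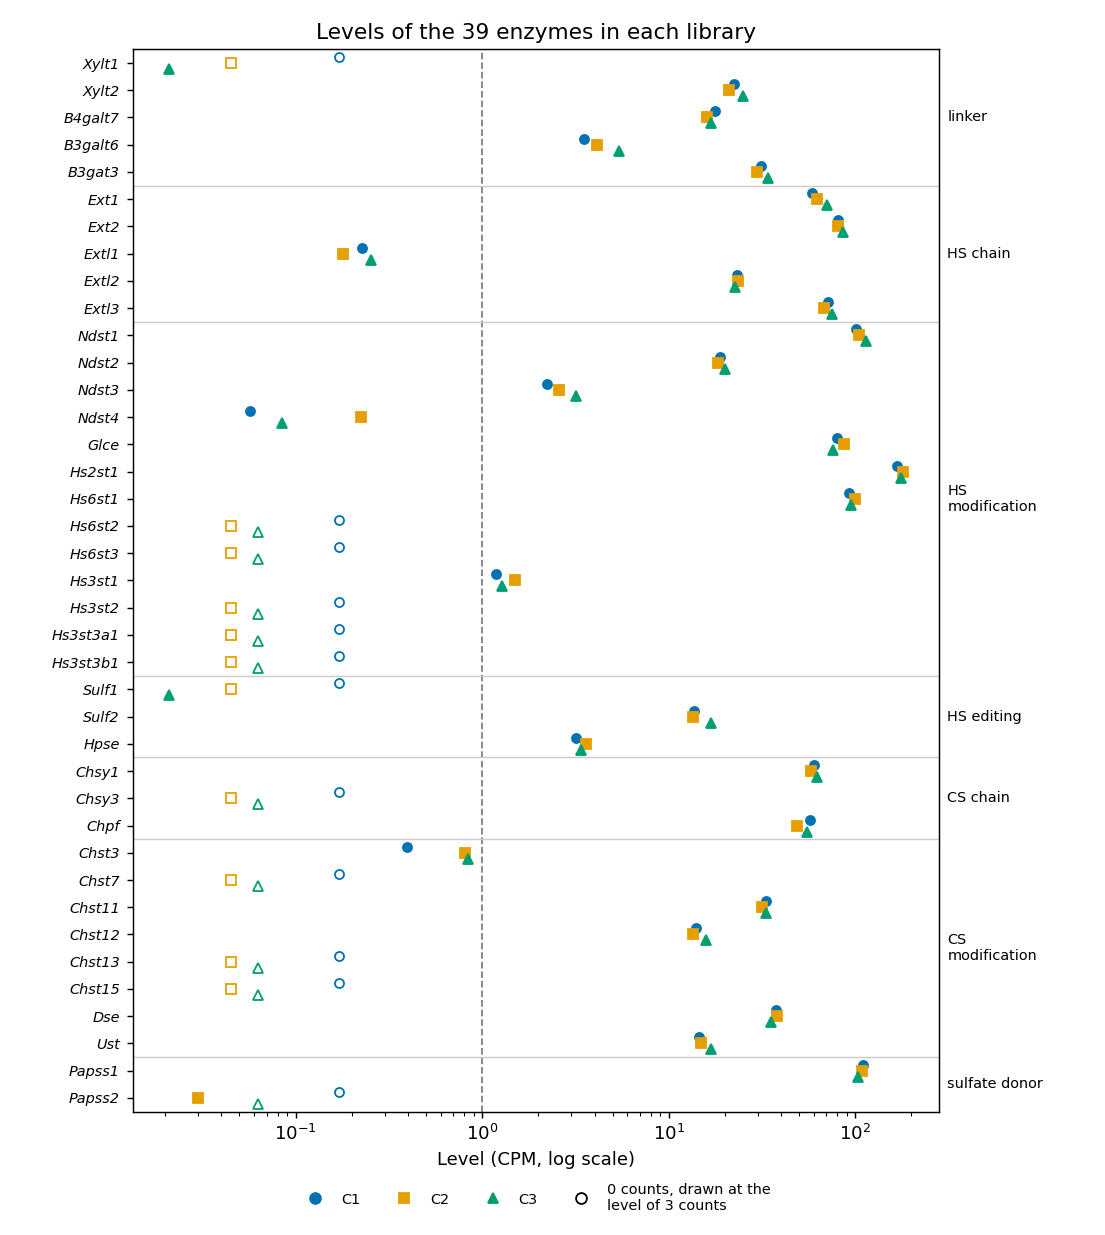
Level of each of the 39 enzymes in CPM (log axis) in libraries C1, C2 and C3, grouped by role; open symbols mark 0 counts and are drawn at the level that 3 counts would give, and the dashed line marks 1 CPM. The 24 enzymes to the right of the line hold nearly the same place in every library, whereas Xylt1, Sulf1, Papss2 and 9 enzymes without a count lie at the left edge.

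The shared linker starts with xylose. Xylt2, a xylosyltransferase that adds it, had 22.5, 21.04 and 24.9 CPM in C1, C2 and C3. Its paralog Xylt1 had 1 count, in C3, and none elsewhere, so nearly all xylosyltransferase reads were Xylt2. Summed over the libraries and corrected for exon length, Xylt2 stood 7257-fold above Xylt1 (95% counting interval 1302 to 286733, from 2992 counts against 1), and 2992-fold without length correction. Of the enzymes that complete the linker, B3gat3, the glucuronyltransferase that adds its last sugar, was highest at 31.7 ± 2.17 CPM (SD, n = 3). B4galt7, which adds the first galactose, had 17.7, 16.1 and 16.8 CPM in C1, C2 and C3. B3galt6, which adds the second galactose, had 3.52, 4.15 and 5.40 CPM in C1, C2 and C3. B3galt6 was thus the lowest detected linker gene in each library, also per kb of exon. Its length-corrected log2 ratio to B4galt7 was -2.11 ± 0.34, or 4.31-fold lower, in 3 of 3 libraries, and was -2.98 with the mean transcript length. B3gat3 stood 1.07 ± 0.10 above B4galt7 on the same scale (2.10-fold).

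Heparan sulfate is polymerised by a complex of Ext1 and Ext2, and in CPM both genes stood above the median of all detected genes. Per kb of exon Ext2 averaged 11.2 CPM and Ext1 7.92 CPM, against a median of 8.32 CPM for detected genes with a length. Ext2 had 80.7, 80.3 and 85.6 CPM in C1, C2 and C3. Ext1 had 58.6, 62.7 and 70.7 CPM in C1, C2 and C3. Ext2 was higher in each library, and per kb of exon it exceeded Ext1 by 0.51 ± 0.09 on the log2 scale (1.42-fold, n = 3). With the mean transcript length in place of the exon length this difference was 1.31, so its size depends on which transcripts are counted. Extl3, which adds the first N-acetylglucosamine and thereby commits a chain to heparan sulfate, averaged 71.5 ± 3.52 CPM. Extl2, whose N-acetylglucosamine can end a chain on a phosphorylated linker, averaged 23.1 ± 0.486 CPM and lay under it: per kb of exon Extl3 was 1.76-fold higher than Extl2, a log2 ratio of 0.81 that was 1.63 without length correction and 0.31 with the mean transcript length. Extl1, the remaining exostosin-like gene, stayed below 1 CPM, with 4, 12 and 12 counts in C1, C2 and C3.

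Of the genes for enzymes that modify heparan sulfate, Ndst1 for N-sulfation, Glce for epimerisation, Hs2st1 for 2-O- and Hs6st1 for 6-O-sulfation stood above the median of all detected genes, and those for 3-O-sulfation lay near 1 CPM or had no count. Hs2st1, the 2-O-sulfotransferase, was the most abundant of all 39 genes by CPM, with 167, 179 and 176 CPM in C1, C2 and C3. Its mean lay above 89.4% of the genes detected. The bifunctional N-deacetylase and N-sulfotransferase Ndst1, which starts the modification of the chain, had 100.3, 104 and 114 CPM in C1, C2 and C3. Its paralog Ndst2 averaged 19.1 ± 0.898 CPM, and Ndst1 exceeded it by 1.61 ± 0.05 on the log2 scale per kb of exon (3.05-fold, 3 of 3 libraries), or by 2.47 without length correction. Ndst3 was low but detected, at 2.21, 2.57 and 3.19 CPM in C1, C2 and C3. Ndst4 had 1, 15 and 4 counts. Glce, the C5-epimerase that turns glucuronic into iduronic acid, averaged 81.0 ± 5.82 CPM. Per kb of exon the log2 ratio of Glce to Hs2st1 was -0.84 ± 0.09; both act in turn on the same sugar.

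The 6-O-sulfotransferases were represented by a single gene. Hs6st1 had 92.7, 99.9 and 94.5 CPM in C1, C2 and C3. Hs6st2 and Hs6st3 had 0 counts in all libraries. The floor of 3 counts stands at 0.170, 0.0448 and 0.0631 CPM in C1, C2 and C3. The exact 95% upper limits for each gene were 0.209, 0.0550 and 0.0775 CPM. Hs6st1 was at least 6022-fold higher than Hs6st2 per kb of exon, with the floor of 3 counts taken over the group; the bound was 3255-fold with the mean transcript length. Of the 3-O-sulfotransferases, which add the rarest sulfate group of the chain, only Hs3st1 was detected. It had 1.19, 1.49 and 1.28 CPM in C1, C2 and C3, with 95% counting intervals of 0.737 to 1.82, 1.21 to 1.81 and 0.981 to 1.65 CPM. Hs3st1 was the detected enzyme closest to the threshold, and its interval crosses 1 CPM in C1 and in C3. Hs3st2, Hs3st3a1 and Hs3st3b1 had 0 counts, and Hs3st3b1 was at least 134-fold lower than Hs3st1 per kb of exon, a bound of 60.7-fold without length correction and 246-fold with the mean transcript length. Annotated sequence bears on these zeros in part. Of the 50-base words of Hs3st3a1 transcripts 42.8% also occur in other genes, mainly the oppositely oriented F930015N05Rik. Of those of Hs3st3b1 8.56% occur in Hs3st3a1, and of those of Hs3st2 7.57% occur in the antisense Gm36736. Hs6st1, though detected, shared 6.37%, mainly with the antisense Gm37335. If reads matching several genes were discarded, such words would carry no count, and nothing in the sources used here says how they were treated.

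The promoters of silent and detected enzymes held similar numbers of CpGs. The 250 bases upstream of the start are shown for Hs6st1 (detected) and Hs6st3 (0 counts), and for Hs3st1 (detected) and Hs3st3b1 (0 counts), because each pair holds paralogs of opposite state with 1 listed start. They are RefSeq sequences of build GRCm38.p6, written 5′ to 3′ on the gene's strand, with each CpG in capitals. The regions are chr1:36068150-36068399 (plus strand, Hs6st1), chr14:119138015-119138264 (plus strand, Hs6st3), chr5:39644632-39644881 (minus strand, Hs3st1) and chr11:63922285-63922534 (minus strand, Hs3st3b1).
Hs6st1: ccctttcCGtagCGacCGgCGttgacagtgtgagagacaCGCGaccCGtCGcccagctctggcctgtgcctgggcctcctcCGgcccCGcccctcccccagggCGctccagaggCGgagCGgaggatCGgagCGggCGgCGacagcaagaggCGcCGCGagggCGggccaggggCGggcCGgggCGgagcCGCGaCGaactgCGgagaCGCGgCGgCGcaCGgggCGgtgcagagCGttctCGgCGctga
Hs6st3: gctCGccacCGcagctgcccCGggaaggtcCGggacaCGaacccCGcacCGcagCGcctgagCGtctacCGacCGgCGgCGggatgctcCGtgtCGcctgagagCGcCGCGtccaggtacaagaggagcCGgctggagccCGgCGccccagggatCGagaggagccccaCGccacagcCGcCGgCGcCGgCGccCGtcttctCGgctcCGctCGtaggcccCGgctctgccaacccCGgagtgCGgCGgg
Hs3st1: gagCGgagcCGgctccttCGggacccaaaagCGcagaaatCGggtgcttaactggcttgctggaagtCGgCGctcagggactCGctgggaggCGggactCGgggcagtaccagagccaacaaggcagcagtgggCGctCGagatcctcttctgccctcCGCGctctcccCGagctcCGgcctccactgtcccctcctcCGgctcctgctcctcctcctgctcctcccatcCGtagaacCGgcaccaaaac
Hs3st3b1: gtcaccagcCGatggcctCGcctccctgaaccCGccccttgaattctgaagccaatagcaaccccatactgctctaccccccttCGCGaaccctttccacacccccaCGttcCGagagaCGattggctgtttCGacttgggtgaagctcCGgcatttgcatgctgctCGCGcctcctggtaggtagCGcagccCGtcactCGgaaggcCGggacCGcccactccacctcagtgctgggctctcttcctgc
Hs6st1 had 37 CpGs in this window and Hs6st3, without a count, had 36. Hs3st1 had 19 and Hs3st3b1, without a count, had 17. Over the 32 enzymes with a listed promoter, the 21 detected ones had a median of 20 CpGs (3 to 38) and the 8 without a count a median of 18.5 (8 to 36). Among all genes of the table with a listed promoter the medians were 18 for the 7870 detected and 3 for the 5346 without a count. In this count, a description with no test, the silent enzymes lay closer to all detected genes than to all genes without a count. The start richest in CpG was used for the 7 enzymes with several listed starts. With the poorest start the medians were 16 for the detected enzymes, 15.5 for those without a count, 16 for all detected genes and 2 for all genes without a count. The motif GGGCGG, searched on both strands and free to overlap a CpG, was in 14 of the 21 detected enzymes and in 6 of the 8 without a count. It was in 44.9% of all listed promoters of the same length, in 65.2% of those of all detected genes and in 18.6% of those of all genes without a count.

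**Figure D2:**
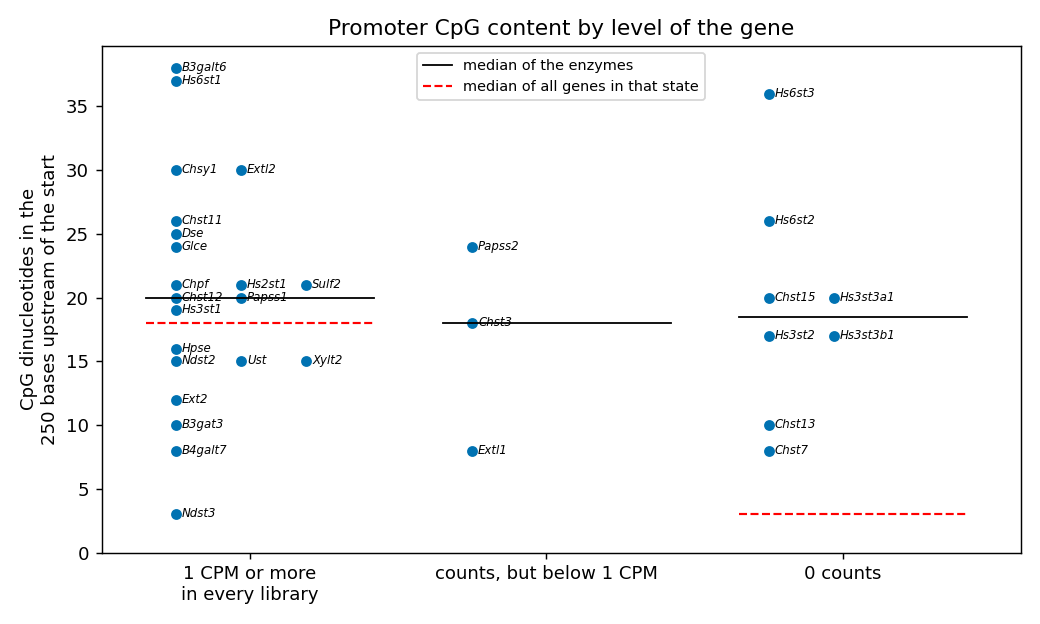
Number of CpG dinucleotides in the 250 bases upstream of the start (vertical axis) for the 32 enzymes with a listed promoter, grouped by detection; black lines are medians of the enzymes and red dashed lines medians of all genes in the same state. The 8 enzymes without a count have a median of 18.5, far above the median of 3 for all genes without a count.

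Of the enzymes that edit finished heparan sulfate outside the Golgi, Sulf2 and Hpse were detected at modest levels. Sulf2, an extracellular endosulfatase that removes 6-O-sulfate, had 13.7, 13.4 and 16.9 CPM in C1, C2 and C3. Sulf1, its paralog with the same activity, had 1 count, in C3. Sulf2 stood 3744-fold above Sulf1 per kb of exon (95% counting interval 671 to 147936, from 1946 counts against 1), and 1946-fold without length correction. Hpse, the heparanase that cuts the chain and is known for its part in matrix invasion, had 3.18, 3.61 and 3.38 CPM in C1, C2 and C3. The spread of these values did not exceed counting noise (adjusted p = 0.737, Poisson dispersion test over all genes).

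Of the 3 enzymes of the list that polymerise chondroitin sulfate, Chpf and Chsy1 were detected. Chpf, the partner that the synthases need for long chains, had 57.1, 48.9 and 55.0 CPM in C1, C2 and C3. Chsy1, a chondroitin synthase, had 59.8, 57.7 and 62.2 CPM in C1, C2 and C3. Per kb of exon Chpf and Chsy1 did not differ beyond their spread (-0.05 ± 0.09 on the log2 scale, with Chpf higher in 1 library and lower in 2), although the value was 0.61 with the mean transcript length. Chsy3, a second synthase, had 0 counts, and Chsy1 was at least 4546-fold higher per kb of exon with the floor of 3 counts over the group, or 2530-fold with the mean transcript length. Chsy1, for the one chain, exceeded Ext1, for the other, by 0.86 ± 0.11 on the log2 scale per kb of exon. This direction rests on the length used: it was -0.71 with the mean transcript length and -0.0915 without length correction.

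Among chondroitin sulfotransferases the 4-O-sulfotransferase genes Chst11 and Chst12 were detected, and the 6-O-sulfotransferase genes Chst3 and Chst7 stayed below 1 CPM. Chst11, a 4-O-sulfotransferase, had 33.4, 31.6 and 33.3 CPM in C1, C2 and C3. Chst12, of the same activity, had 14.0, 13.5 and 15.7 CPM in C1, C2 and C3. Per kb of exon the pair did not differ beyond its spread (-0.04 ± 0.10 on the log2 scale), and the sign turned without C3 (0.0160) and without length correction (1.19). Chst13, the third of this kind, had 0 counts. Chst3, the main chondroitin 6-O-sulfotransferase, had 0.397, 0.806 and 0.841 CPM in C1, C2 and C3, under the threshold in each library, with 95% counting intervals of 0.160 to 0.818, 0.605 to 1.05 and 0.601 to 1.14 CPM. Chst7, also a 6-O-sulfotransferase, had 0 counts, and Chst3 was at least 11.4-fold higher per kb of exon, or 33.7-fold without length correction. Chst15, which adds a second sulfate to a 4-O-sulfated sugar, had 0 counts. Of its 50-base words 16.5% also occur in other genes, mainly an antisense transcript.

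Dermatan sulfate is the form of the chain in which glucuronic acid has been epimerised. Dse, an epimerase that makes it, had 37.6, 38.0 and 35.5 CPM in C1, C2 and C3. Ust, which adds 2-O-sulfate to its uronic acids, had 14.6, 14.8 and 16.8 CPM in C1, C2 and C3. Per kb of exon Dse exceeded Ust by 1.16 ± 0.16 on the log2 scale, in 3 of 3 libraries. With the mean transcript length the difference was 2.80. The epimerase and the sulfotransferase were both detected, so genes for a dermatan-type chain were expressed beside the 4-O-sulfotransferases.

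The sulfate donor PAPS is made by Papss1 and Papss2, each with both enzyme activities that are needed. Papss1 had 109.5, 109 and 104 CPM in C1, C2 and C3. Papss2 had 2 counts, both in C2. Papss1 stood 8613-fold above Papss2 per kb of exon (95% counting interval 2384 to 71130, from 14134 counts against 2). Corrected for exon length, Papss1 was the highest of all 39 enzymes, at 35.1 ± 1.06 CPM per kb.

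Ordered by length-corrected level, Papss1 was followed by Hs2st1 (21.2 ± 0.749 CPM per kb) and Hs6st1 (17.3 ± 0.673 CPM per kb), and these 3 were separated from each other and from the next in all libraries. Chsy1, Chpf, Ndst1, B3gat3, Glce, Extl3 and Ext2 formed a run from 14.3 to 11.2 CPM per kb in which each overlapped its neighbour. At the low end Sulf2 (2.50 CPM per kb), B3galt6 (1.37), Hpse (0.964), Hs3st1 (0.593) and Ndst3 (0.269) did not overlap. Of the 23 neighbouring pairs in this order, 11 overlapped and 12 did not. The median of the 24 detected enzymes was 7.07 CPM per kb, and that of the 11543 detected genes with a length was 8.32 CPM per kb. With the mean transcript length the highest 3 were Ext2, Hs2st1 and Papss1, so the order at the top depends on the length, whereas the lowest 4 genes kept their order.

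**Figure D3:**
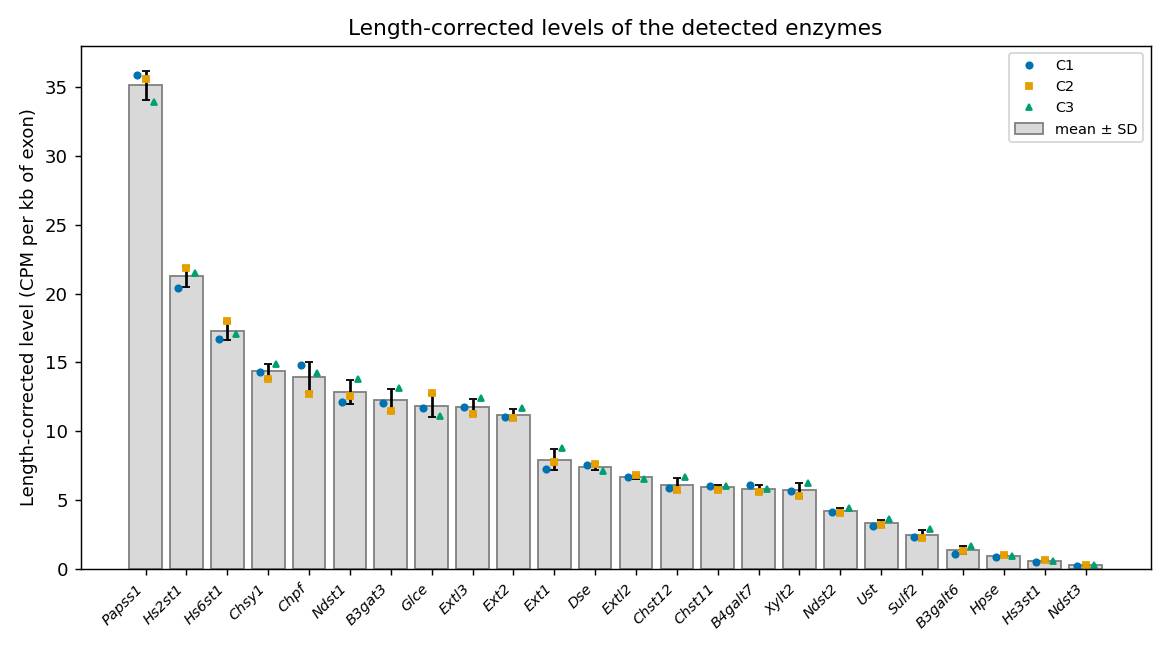
Mean length-corrected level of the 24 detected enzymes in CPM per kb of exon, with SD over 3 libraries as error bars and each library as a point. Papss1 stands at 35.1 CPM per kb, and the levels run down to 0.269 CPM per kb for Ndst3.

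**Figure D4:**
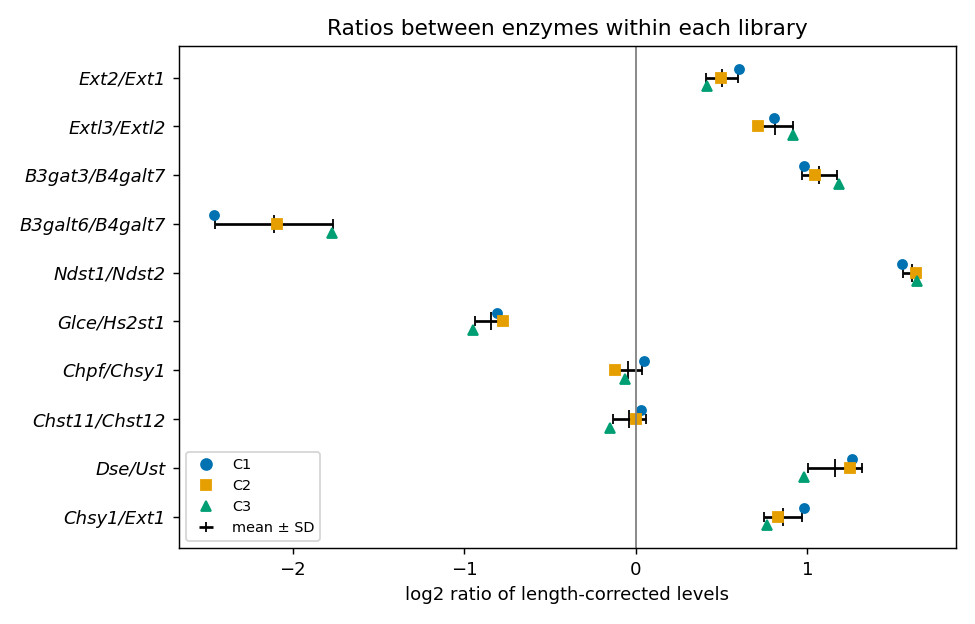
Ratio of length-corrected levels within each library (log2, horizontal axis) for the 10 of 17 pairs in which both genes had over 3 counts per library. The pairs were chosen with earlier results of these data known. Points are libraries, and black bars show the mean and SD over 3 libraries. Chpf/Chsy1 and Chst11/Chst12 straddle 0, and B3galt6/B4galt7 lies lowest at -2.11.

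Between the 3 libraries the detected enzymes differed mostly by small ratios, in the median slightly larger than those of all detected genes. The ratio of the highest to the lowest library had a median of 1.14 over the 24 detected enzymes, and of 1.10 over all detected genes. It reached 1.54 for B3galt6, 1.44 for Ndst3 and 1.26 for Sulf2, and was lowest for Extl2 at 1.04. The coefficient of variation of CPM had a median of 6.60% over the detected enzymes and of 4.95% over all detected genes.

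In the Poisson dispersion test over 13026 genes, with Benjamini-Hochberg adjustment, 15 of the 25 enzymes tested (60.0%) varied more than counting noise allows, where 39.3% of all genes did. The other 14 enzymes had too few counts to be tested. Glce (adjusted p = 4.27e-09), Ext1 (5.98e-09) and Ndst1 (5.08e-08) were furthest past the threshold. Ext1 and Ndst1 were highest in C3, and Glce was highest in C2. Chpf (adjusted p = 2.34e-06), at 57.1 CPM in C1 against 48.9 CPM in C2, was the one past the threshold that was highest in C1. The 10 that did not pass included Papss1 (adjusted p = 0.0745), Chst11 (0.304), Dse (0.219), Extl2 (0.721) and Ndst3 (0.0956). Papss1 passed with column totals (0.0469) and without C1 (0.0442). Ust, past the threshold at 0.0455, missed it with column totals (0.0543) and without the filter on low counts (0.0691). Leaving out C1 gave 15 enzymes, 14 of them shared: Hs2st1 was lost (adjusted p = 0.518) and Papss1 gained, beside 36.8% of all genes. Leaving out C2 gave 4 enzymes, beside 13.8% of all genes, and leaving out C3 gave 3, beside 12.9%. Glce and Chpf lost their call without C2, and Ext1 and Ndst1 without C3. Set against genes of similar level with edgeR's quasi-likelihood dispersion (F test), 0 of the 25 enzymes stood out, where 0.0691% of all genes did. The smallest adjusted p was 0.953, and 1 enzyme, Ext1, had an unadjusted p under 0.05.

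C3 was the library in which the enzymes were most often highest. Of the 24 detected enzymes 13 (54.2%) were highest in C3, where 34.0% of all detected genes were, 7 were highest in C2 (35.7%) and 4 in C1 (30.3%). With TMM or DESeq2 scaling 14 were highest in C3, beside 35.5% and 35.8% of all detected genes. Of the 15 past counting noise 11 were highest in C3, where 40.3% of all genes past counting noise were. The 11 were B3galt6, Xylt2 and B3gat3 of the linker, Ext1, Ext2 and Extl3 of heparan sulfate polymerisation, Ndst1, Sulf2, Chsy1, Chst12 and Ust. Hs2st1, Hs6st1 and Glce were highest in C2, with Hs2st1 close between C2 and C3 (179 against 176 CPM). The summed epithelial markers were also highest in C3, at 3736 CPM, against 3430 CPM in C1 and 3461 CPM in C2, although Cdh1 of that list was lowest in C3 (437, 463 and 431 CPM in C1, C2 and C3), whereas the summed leukocyte markers were highest in C1. Their part in these differences was not tested.

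**Figure D5:**
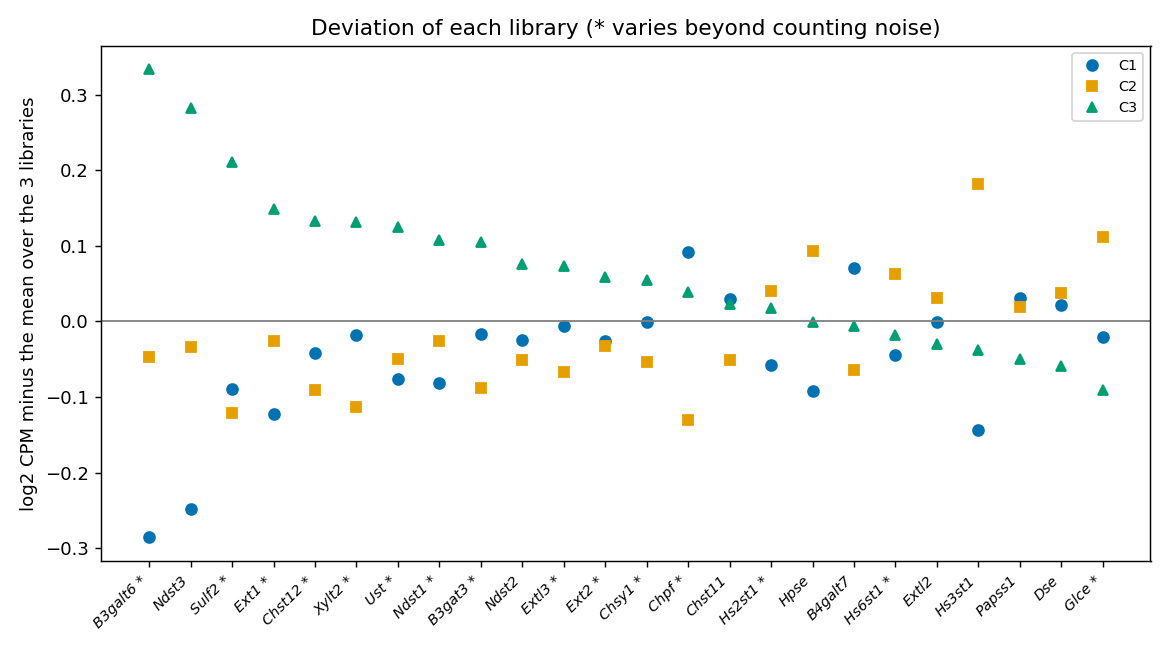
Deviation of each library from the mean of the 3 libraries (log2 CPM, vertical axis) for the 24 detected enzymes, ordered by the value in C3; an asterisk marks the enzymes that varied beyond counting noise. C3 was highest for 13 of the 24, from B3galt6 on the left to Chsy1.

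Other genes of the pathway were described from 3 lists. Of 24 further genes of synthesis and supply 16 reached 1 CPM, led in CPM by Ugdh, which makes UDP-glucuronic acid (307 ± 6.27 CPM), Impad1, a Golgi phosphatase that clears the by-product of sulfation (248 ± 7.004 CPM), and the xylose kinase Fam20b (116 ± 2.19 CPM). Of these 24, 6 had no count, among them Chst8, Chst9, B3gat1 and Hs3st4. Hs3st5 and Hs3st6, named after their values were seen, were also at 0, so Hs3st1 was the only 3-O-sulfotransferase with a count among all those looked up. Chst14, the dermatan 4-O-sulfotransferase, and Dsel, a second epimerase, likewise named after their values were seen, averaged 18.0 ± 0.191 and 19.1 ± 0.964 CPM. Chpf2, a further chondroitin polymerising factor, and Csgalnact1 and Csgalnact2, which start the chondroitin chain, named in the same way, averaged 33.6 ± 0.854, 13.8 ± 1.81 and 34.6 ± 0.864 CPM. Of 16 genes of lysosomal breakdown 14 reached 1 CPM, led by the glucuronidase Gusb (188 ± 2.15 CPM). The sulfatase Ids averaged 49.4 ± 1.89 CPM, and Hpse2 had no count. Counting noise was exceeded by 7 of 16 synthesis and supply genes tested and by 3 of 15 breakdown genes, beside the 39.3% of all genes.

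Of 23 genes for core proteins that can carry the chains, 11 reached 1 CPM in every library, beside 33.8% of all symbols. Cd44, of which some forms carry a chain, was highest at 421 ± 40.0 CPM, followed by perlecan, Hspg2 (330.1 ± 15.3 CPM), and agrin, Agrn (279 ± 13.9 CPM). Gpc2, Gpc3, Gpc5 and Bcan had no count, where 45.7% of all symbols had none. Counting noise was exceeded by 9 of the 12 core protein genes tested, beside 39.3% of all genes tested. Of the 11 detected, 8 were highest in C3, beside 34.0% of all detected genes. In the other lists 5 of 16 detected synthesis and supply genes and 5 of 14 detected breakdown genes were highest in C3. The summed level of the core protein genes was 2024, 2031 and 2261 CPM in C1, C2 and C3. For synthesis and supply it was 1112, 1130 and 1111 CPM, and for breakdown 514, 521 and 528 CPM.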

How the data were processed

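The deposited table holds raw counts per gene symbol for 3 libraries, whole numbers with no scaling applied, per the file headers. Poly(A) selection with a stranded kit is given by the labels' protocols. CASAVA 1.7, BWA, STAR, HTSeq and build mm9 are named, per the submitters' processing notes, without role or order. Of the annotation, the strand setting and the treatment of reads matching several genes, nothing is said in the sources used here. All 34591 rows carry a symbol. No sample title occurs among the column names; the 3 columns stand for the 1 group, and C1, C2 and C3 carry no order.

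CPM was computed on column totals (17630755, 67028365 and 47577315 counts). Detection meant 1 CPM in every library. Intervals are exact 95% Poisson or binomial, and a gene at 0 was given the limit of 3 counts per library; in ratios of summed counts the floor was 3 counts over the group. Both cover counting error only. Exon lengths came from GENCODE M21 (31440 of 34591 symbols, all 39 enzymes), which is on another build than mm9 and was used for lengths and shared words, not coordinates. Promoters were RefSeq windows of GRCm38.p6, listed for 32 of the 39. Ratios within libraries had 0.5 counts added; no sign-flip test was used, since 3 libraries allow no exact p below 0.25.

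Spread was tested on all genes passing filterByExpr (13026) with TMM scaling in edgeR 4.0.16 (R 4.3.3): a chi-square test of Poisson dispersion with 2 degrees of freedom, and edgeR's quasi-likelihood dispersion against its trended prior (F test), Benjamini-Hochberg at 0.05. Both were run on simulated libraries, with counting noise only or with added spread and some genes doubled in a single library. Smaller changes were not simulated. DESeq2 1.42.0 gave size factors as an alternative. The enzymes, lists and 17 pairs were chosen with earlier results of these data known. Every enzyme is named; of each other list the 3 most abundant genes and up to 4 without a count are named, except 1 gene that is not reported here.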

Additional observations from a re-analysis of the deposited data

How the results depend on the processing

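The number of detected enzymes stayed at 24 under TMM scaling, DESeq2 size factors, a threshold of 0.5 CPM and without each library. It was 23 at 2 CPM, where Hs3st1, the only detected 3-O-sulfotransferase, was lost. The other pathway genes detected (41) ranged from 40 to 42. A lower threshold or a library left out cannot lower either count, so those settings could not show a loss. With TMM or DESeq2 scaling each of the 30 enzyme levels above 0 moved by less than 1 SD; leaving out 1 of 3 libraries cannot move a mean that far and shows nothing of stability. The enzymes past counting noise were the same 15 with DESeq2 size factors, 15 with column totals (14 shared, with Ust lost and Papss1 gained), 14 without the low-count filter (Ust lost), and between 3 and 15 without each library; fewer libraries and counts were then tested. The quasi-likelihood count stayed at 0 under each alternative, the robust prior included. Length was the choice that moved the ratios. With the mean transcript length the log2 ratios became 1.31 (Ext2/Ext1), 0.31 (Extl3/Extl2), 1.19 (B3gat3/B4galt7), -2.98 (B3galt6/B4galt7), 1.97 (Ndst1/Ndst2), -0.97 (Glce/Hs2st1), 0.61 (Chpf/Chsy1, reversed), -0.65 (Chst11/Chst12), 2.80 (Dse/Ust) and -0.71 (Chsy1/Ext1, reversed). Without length correction they were 0.36, 1.63, 0.91, 2.47, -1.11, -0.16 and 1.19 (reversed) for Ext2/Ext1, Extl3/Extl2, B3gat3/B4galt7, Ndst1/Ndst2, Glce/Hs2st1, Chpf/Chsy1 and Chst11/Chst12, and -0.0915 for Chsy1/Ext1 (reversed). Without 1 library Chst11/Chst12 ranged from -0.0738 to 0.0160. Ratios and bounds from summed counts shrank with fewer counts: without C1 or C2 Xylt2/Xylt1 was 6297 or 3837 and Sulf2/Sulf1 3278 or 2012, and without C1 or C3 Papss1/Papss2 was 7437 or 5612; the remaining leave-outs put the lower gene at 0 counts and give no ratio. Without each library the bounds were 2878 to 5254 (Hs6st1/Hs6st2), 2316 to 3938 (Chsy1/Chsy3), 5.32 to 10.6 (Chst3/Chst7) and 60.2 to 118 (Hs3st1 over Hs3st3b1). Adding 1 count moved no ratio by 1 SD. No paired analysis was possible because the samples form 1 group. TMM and DESeq2 scaling of the count of enzymes highest in C3 (13, and 14 under both) were added after seeing the data. The share of all detected genes highest in C3 was 34.0% on column totals, 35.5% with TMM and 35.8% with DESeq2 scaling. At this depth an enzyme under about 3 counts per library could not be told from one that is off.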
